A study of Mus musculus with 36 samples.

Results

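The response to 24 h of forced Mesp1 expression was measured by RNA-seq in differentiating mouse embryonic stem cells, over 10 of the 36 libraries of the study. All libraries labelled as wild type, 24 h, and batch 1 or batch 2 were members. With doxycycline (dox), the drug that switches on a Mesp1 transgene, there were 6 libraries (2 in batch 1 and 4 in batch 2). Without dox there were 4 (2 in each batch). The cells without dox carry the same inducible transgene, and no group was free of it. Cells were grown as hanging drops in serum, and hours were counted from a labelled stage of differentiation. The labels give neither the clone, the site of the transgene nor the dose of dox, and dox on cells without the transgene was not analysed here. Wild-type cells sorted on day 4 for the surface receptors Flk1 and Pdgfra served as a separate readout that shares no library with the 10. These were 3 double positive and 3 double negative libraries, whose titles do not mention dox. Levels are also given for wild-type cells of batch 1 at 12 h, with and without dox. The same holds for stem cells kept in 2i, a medium of kinase inhibitors, whose titles give no genotype.

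Mesp1 encodes a basic helix-loop-helix transcription factor that is made for a short time in newly formed mesoderm, and cells that have made it go on to build the heart and vessels. Factors of this family bind a short DNA word called the E-box. When forced on in stem cells, Mesp1 is known to drive exit from the pluripotent state, loss of epithelial traits and entry into cardiovascular mesoderm. The results keep to genes and pathways outside the known lineage regulators.

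Libraries held 12325443 to 44360795 gene counts in batch 1 and 12360120 to 17484452 in batch 2. Levels are given as CPM (a gene's count scaled to a common library total). Mesp1 itself (gene at chr7:79792241-79793788, GRCm38) stood at 41.5 and 45.2 CPM in batch 1 and 0.808 and 1.505 CPM in batch 2 without dox. With dox it stood at 183 and 348 CPM in batch 1 and 544, 209, 42.9 and 95.2 CPM in batch 2. Every dox library thus lay above both libraries without dox of its batch, but Mesp1 without dox was far higher in batch 1 than in batch 2, and one batch 2 dox library was level with the batch 1 controls. The log2 fold change was 4.52 ± 0.93 (SE, edgeR adjusted p = 0.00116), 2.64 in batch 1 and 7.63 in batch 2. The counts do not tell the transgene's transcript from that of the cells' own gene. The labelled cell type was checked on the pluripotency gene Pou5f1, which averaged 549 ± 115 CPM (SD, n = 4) without dox and 191 ± 44.1 CPM (SD, n = 6) with dox.

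Of 18592 genes tested with batch as a term, 5584 (30.0%) passed an adjusted p below 0.05, 2869 of them higher with dox (15.4%) and 2715 lower (14.6%). The median log2 fold change over all genes was 0.019. Of the genes tested, 879 had no count in any batch 2 library and 2 had none in any batch 1 library. Among the 879, 78 were called, on batch 1 alone. Among protein-coding genes at 5 CPM or more, 33.2% were called, 17.8% higher and 15.4% lower. A set of 32 pathway lists held 740 tested genes, of which 184 were higher, 166 lower and 390 not called, a called share of 47.3%. The lists were written with earlier results of these data known, so this share cannot be read against that over all genes. In bulk libraries a lower level can come from fewer cells of one type or from less RNA per cell, and these cannot be told apart.

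**Figure D1:**
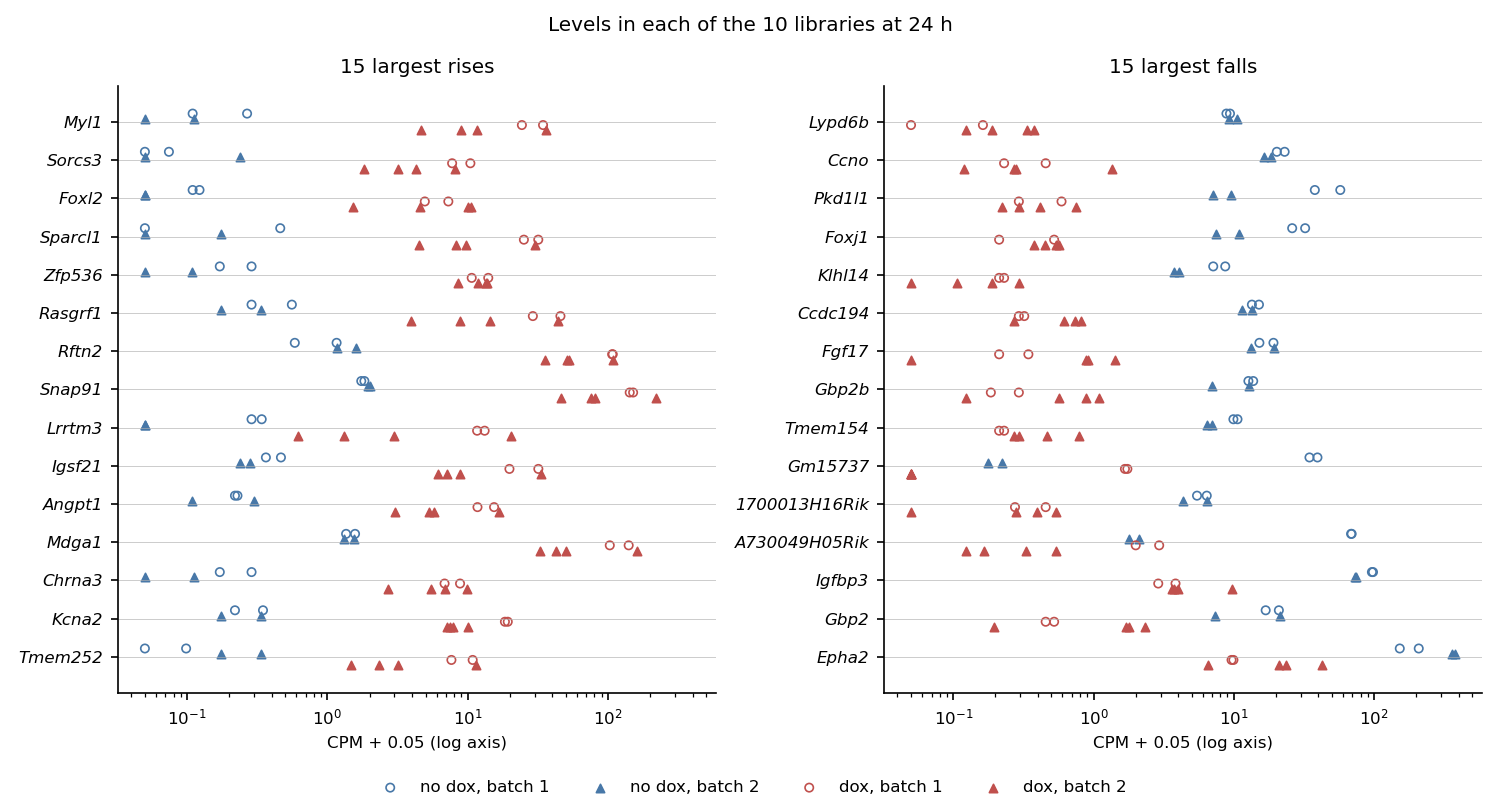
Level of each gene in the 10 libraries at 24 h, for the 15 largest rises (left) and the 15 largest falls (right), with symbols by batch and treatment and a log axis of CPM + 0.05. In every row the dox and no-dox libraries of a batch do not overlap, while batch 2 dox libraries differ widely among themselves for most of the rises.

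The largest rises outside the lineage genes began from levels near 0. Myl1, which encodes a myosin light chain of fast skeletal muscle, stood at 0.217 and 0.059 CPM in batch 1 and 0 and 0.063 CPM in batch 2 without dox. With dox it reached 34.4 and 24.3 CPM in batch 1 and 36.2, 4.61, 8.91 and 11.7 CPM in batch 2, a log2 fold change of 7.63 ± 0.77 (adjusted p = 9.14e-07). Snap91, a clathrin adaptor of nerve terminals, was the most abundant of the 15 with dox. It went from 1.69 and 1.78 CPM in batch 1 and 1.904 and 1.94 CPM in batch 2 to 143 and 151 CPM in batch 1 and 219.7, 46.4, 75.7 and 80.2 CPM in batch 2 (log2 fold change 6.09 ± 0.44). Rftn2, of the raftlin family of lipid raft proteins, went from 1.11 and 0.535 CPM in batch 1 and 1.56 and 1.13 CPM in batch 2 to 107 and 108 CPM in batch 1 and 109, 35.4, 50.9 and 52.7 CPM in batch 2 (log2 fold change 6.21 ± 0.39). For each of these genes every dox library lay far above every control, and dox library 1 of batch 2 was the highest of its batch.

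Several others of the 15 are best known from neurons. Mdga1, a membrane-anchored immunoglobulin protein that binds neuroligins, rose by 5.99 ± 0.66 on the log2 scale and stood at 103 and 140.2 CPM in batch 1 and 160.0, 32.9, 42.7 and 50.2 CPM in batch 2 with dox. The potassium channel gene Kcna2 rose by 5.96 ± 0.38, the nicotinic receptor subunit gene Chrna3 by 5.98 ± 0.58, and the synaptic adhesion genes Lrrtm3 and Igsf21 by 6.06 ± 1.00 and 6.04 ± 0.68. The sorting receptor gene Sorcs3 rose by 7.06 ± 0.90, and the Ras exchange factor gene Rasgrf1 by 6.41 ± 0.67. These genes rose in the same dox libraries in which a list of 8 neuron markers summed to 197.2 to 301.8 CPM, against 90.48 to 127.5 CPM without dox. The part of such cells in the rises was not tested. The neuron markers did not move one way, since Tubb3, Stmn2 and Map2 rose while Dcx, Elavl3 and Snap25 fell.

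The remaining rises were of mixed kind. Foxl2, a forkhead factor known from the ovary, rose by 7.06 ± 0.74 and reached 4.89 and 7.22 CPM in batch 1 and 10.1, 10.4, 1.46 and 4.52 CPM in batch 2. Zfp536, a zinc finger gene, rose evenly over the libraries, from at most 0.238 CPM to 10.6 and 13.9 CPM in batch 1 and 13.6, 8.41, 11.8 and 13.6 CPM in batch 2 (log2 fold change 6.87 ± 0.43, adjusted p = 7.8e-09). Angpt1, which encodes a ligand of the Tie2 receptor of endothelial cells, went from 0.169 and 0.178 CPM in batch 1 and 0.058 and 0.251 CPM in batch 2 to 15.3 and 11.7 CPM in batch 1 and 16.6, 2.99, 5.22 and 5.72 CPM in batch 2 (log2 fold change 6.02 ± 0.56). Sparcl1, a secreted matrix glycoprotein gene, rose by 6.93 ± 0.71, and Tmem252 by 5.88 ± 0.81. Among the dox libraries of batch 2, library 1 was the highest for each of the 15 genes except Foxl2 and Kcna2, and its Mesp1 level was also the highest of all 10.

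The largest falls took genes from moderate levels to near 0. Ccno, a cyclin needed for cells to make many cilia, stood at 20.2 and 22.9 CPM in batch 1 and 16.4 and 18.2 CPM in batch 2 without dox and at 0.1803 and 0.406 CPM in batch 1 and 0.2201, 1.29, 0.07 and 0.229 CPM in batch 2 with dox (log2 fold change -5.92 ± 0.55, adjusted p = 3.74e-07). Lypd6b, a Ly6 domain gene, went from 9.33 and 8.800 CPM in batch 1 and 9.12 and 10.4 CPM in batch 2 to 0.113 and 0 CPM in batch 1 and 0.073, 0.324, 0.139 and 0.286 CPM in batch 2 (log2 fold change -5.93 ± 0.44). Igfbp3, a secreted binding protein of insulin-like growth factors, fell from 98.01 and 96.3 CPM in batch 1 and 73.9 and 72.6 CPM in batch 2 to 3.79 and 2.84 CPM in batch 1 and 3.59, 9.63, 3.69 and 3.95 CPM in batch 2 (log2 fold change -4.23 ± 0.27). Epha2, a receptor tyrosine kinase for ephrins, was the most abundant of the 15 without dox. It stood at 152 and 208 CPM in batch 1 and 360.2 and 375 CPM in batch 2, and with dox at 9.87 and 9.57 CPM in batch 1 and 6.53, 42.4, 21.02 and 23.6 CPM in batch 2 (log2 fold change -3.98 ± 0.36).

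Of the other falls, Fgf17, a ligand of the FGF8 group, fell by 4.89 ± 0.45 on the log2 scale. Pkd1l1, a polycystin channel gene known from left-right patterning, fell by 5.65 ± 0.43. Klhl14, Ccdc194, Tmem154 and 1700013H16Rik had log2 fold changes between -5.32 and -4.37. Gm15737 and A730049H05Rik were almost confined to batch 1. Gm15737 stood at 34.5 and 39.4 CPM in batch 1 and 0.173 and 0.125 CPM in batch 2 without dox, and A730049H05Rik at 69.03 and 68.4 CPM in batch 1 and 1.73 and 2.07 CPM in batch 2. Their falls of 4.50 ± 0.23 and 4.27 ± 0.42 thus rest mainly on 1 batch, and 36.9% of the exon bases of A730049H05Rik overlap another gene. For Gm15737 the overlap was 8.66%. Both genes (chr6:92869357-92884411 for Gm15737 and chr6:92816478-92847174 for A730049H05Rik) lie within the span of Adamts9 (chr6:92772699-92943492), on the other strand. Adamts9 fell as well (log2 fold change -3.701 ± 0.24). The part of its reads in these falls was not tested.

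Interferons are signals of infection that raise genes of antiviral defence and antigen presentation, and some of these genes were among the largest falls. The guanylate-binding protein genes Gbp2 and Gbp2b, GTPases that cells make in response to interferon, lie near each other on chromosome 3. Gbp2 (gene at chr3:142620602-142638008) stood at 16.8 and 20.9 CPM in batch 1 and 7.33 and 21.4 CPM in batch 2 without dox and at 0.473 and 0.406 CPM in batch 1 and 0.147, 2.27, 1.74 and 1.66 CPM in batch 2 with dox, a log2 fold change of -4.04 ± 0.52 (adjusted p = 1.22e-05). Gbp2b (gene at chr3:142594847-142619179) went from 12.6 and 13.7 CPM in batch 1 and 6.92 and 12.8 CPM in batch 2 to 0.135 and 0.243 CPM in batch 1 and 0.073, 1.05, 0.835 and 0.515 CPM in batch 2 (log2 fold change -4.76 ± 0.46). Both were lowest in dox library 1 of batch 2 and in the dox libraries of batch 1.

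The promoters of both hold a word that interferon regulatory factors are known to bind. Their RefSeq promoters (GRCm38.p6, 250 bases before to 50 after the start) are printed with that of Bst2, another interferon-induced gene that fell, which was chosen for its promoter after its values were seen. Capitals mark 2 copies of TTTC with 2 bases between them, on either strand. The Gbp2 window is chr3:142620413-142620712 and that of Gbp2b is chr3:142594597-142594896, both on the plus strand, and that of Bst2 is chr8:71537423-71537722 on the minus strand.
Gbp2: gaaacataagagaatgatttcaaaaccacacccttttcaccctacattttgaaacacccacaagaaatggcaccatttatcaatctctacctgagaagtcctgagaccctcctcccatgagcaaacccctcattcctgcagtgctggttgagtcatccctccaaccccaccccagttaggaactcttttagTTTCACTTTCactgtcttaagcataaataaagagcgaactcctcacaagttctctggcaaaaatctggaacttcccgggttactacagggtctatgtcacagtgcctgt
Gbp2b: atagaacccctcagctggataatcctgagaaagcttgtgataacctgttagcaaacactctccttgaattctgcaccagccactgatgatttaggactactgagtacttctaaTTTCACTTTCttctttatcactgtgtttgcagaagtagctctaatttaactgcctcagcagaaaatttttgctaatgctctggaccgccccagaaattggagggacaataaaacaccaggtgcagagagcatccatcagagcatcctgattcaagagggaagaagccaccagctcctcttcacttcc
Bst2: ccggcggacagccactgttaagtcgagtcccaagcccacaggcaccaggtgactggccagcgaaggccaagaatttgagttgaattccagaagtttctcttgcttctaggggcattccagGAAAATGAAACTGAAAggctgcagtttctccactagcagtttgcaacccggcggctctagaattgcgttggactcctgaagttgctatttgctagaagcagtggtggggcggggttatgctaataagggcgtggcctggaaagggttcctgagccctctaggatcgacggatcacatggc
The match begins 59 bases before the start in Gbp2 and 137 before it in Gbp2b. Bst2 stood at 27.5 and 32.4 CPM in batch 1 and 33.8 and 40.1 CPM in batch 2 without dox and at 5.88 and 4.87 CPM in batch 1 and 4.99, 7.201, 5.92 and 8.18 CPM in batch 2 with dox (log2 fold change -2.48 ± 0.13). Its promoter holds 2 overlapping matches that begin 130 and 124 bases before its start. This word was found in 3.44% of all 32851 promoters of this length and in 3.48% of the tested genes that had one. It was found in 10 of the 25 interferon list genes with a promoter (40%). Of these list genes it was in 3 of 11 that fell (Ifit1, Ifih1 and Bst2) and in 3 of 4 that rose (Irf2, Stat2 and B2m). Over all genes it was found in 3.15% of those called higher and 4.37% of those called lower. The E-box, CANNTG on either strand, was in 68.4% of the tested genes' promoters, 66.8% of those called higher and 74.3% of those called lower.

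In the interferon and antigen presentation list, 13 of 27 tested members fell, 4 rose and 10 were not called, against 14.6% lower over all genes. The list's median log2 fold change was -0.565. Psmb8, an immunoproteasome subunit, fell from 4.96 and 7.67 CPM in batch 1 and 5.597 and 8.28 CPM in batch 2 to 0.361 and 0.243 CPM in batch 1 and 0.073, 0.485, 0.418 and 1.03 CPM in batch 2 (log2 fold change -3.88 ± 0.41, adjusted p = 1.52e-06). Irf1, a transcription factor of the interferon response, fell from 68.4 and 61.01 CPM in batch 1 and 99.1 and 102 CPM in batch 2 to 13.8 and 11.1 CPM in batch 1 and 9.46, 16.02, 14.7 and 18.4 CPM in batch 2 (log2 fold change -2.58 ± 0.15). The groups were well apart for both genes. The peptide transporter gene Tap2, its partner Tapbp, and the immunoproteasome gene Psmb10 also fell, as did the class I genes H2-K1 and H2-D1, by 0.92 and 0.95 on the log2 scale.

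Not all of the list fell. Ifitm1, an interferon-induced membrane protein gene, rose from 32.7 and 25.98 CPM in batch 1 and 24.1 and 14.9 CPM in batch 2 to 104 and 107 CPM in batch 1 and 121, 108, 83.7 and 89.8 CPM in batch 2 (log2 fold change 2.07 ± 0.30). B2m, the light chain of class I molecules, rose by 0.87 ± 0.12, and Irf2 and Stat2 rose by 0.74 and 0.40. Members not called included Psmb9, Tap1, Nlrc5, Irf3, Irf7, Irf9, Ifit2, Ifitm2 and Ifitm3. Ifit3 and Isg15 were too low to test. The count of rises went to 2 when the second batch 2 library without dox was left out.

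Motile cilium genes had the second lowest median of the 32 lists, at -0.477. Motile cilia beat to move fluid, and in the early embryo they are found at the node. Of 23 tested members 9 fell (39.1%), 2 rose (8.7%) and 12 were not called, against 14.6% lower and 15.4% higher over all genes. Foxj1 (gene at chr11:116330704-116335399), the master regulator of motile cilia, stood at 32.1 and 25.98 CPM in batch 1 and 10.8 and 7.399 CPM in batch 2 without dox and at 0.473 and 0.162 CPM in batch 1 and 0.513, 0.324, 0.487 and 0.4004 CPM in batch 2 with dox (log2 fold change -5.47 ± 0.50, adjusted p = 3e-07). Mcidas, which works upstream of Foxj1, also fell, as did the axoneme genes Rsph4a, Spag6l, Pifo, Dnaic1 and Tekt2, and the ciliary factor Rfx3 fell by 0.48 ± 0.11. The node factor Noto had no count in any dox library. Cfap43 and Tppp3 rose by 0.56 and 0.75. Apart from Foxj1, Rfx3 and Cfap43 the called members averaged under 5 CPM in both groups. The rise of Tppp3 and Cfap43 was down to 1 call when any one of 6 libraries was left out. The falls numbered 3 in batch 2 alone and 5 when only the 10 libraries were fitted.

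**Figure D2:**
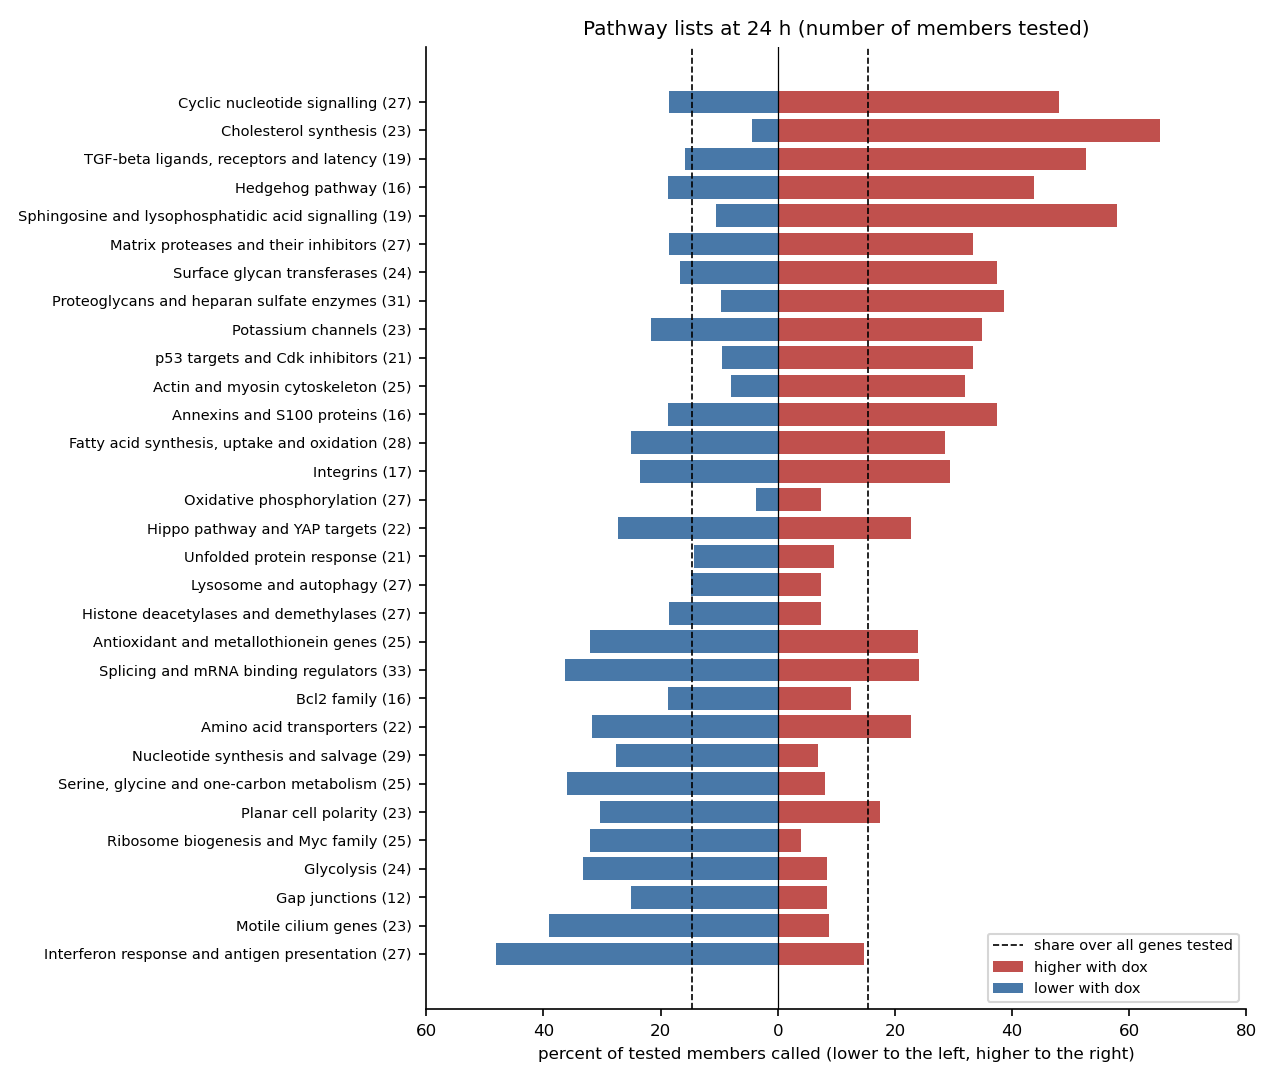
Percent of the tested members of the pathway lists that were called higher (right, red) or lower (left, blue) with dox, ordered by the list's median log2 fold change, with the number of tested members in brackets. The dashed lines mark 15.4% higher and 14.6% lower over all genes, and cholesterol synthesis reaches furthest to the right and the interferon list furthest to the left.

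Cholesterol synthesis was the list with the largest share of rises. Of 23 tested members 15 rose (65.2%) and 1 fell (4.35%), against 15.4% and 14.6% over all genes. A positive log2 fold change was seen in 22, and the median was 0.443. No change reached 2-fold. Mvd, which makes isopentenyl diphosphate, went from 47.2 and 54.2 CPM in batch 1 and 68.6 and 66.03 CPM in batch 2 to 77.5 and 93.1 CPM in batch 1 and 234, 118, 94.2 and 120.4 CPM in batch 2 (log2 fold change 0.98 ± 0.22, adjusted p = 0.00227). Sc5d, a late enzyme of the pathway, went from 65.3 and 55.2 CPM in batch 1 and 52.5 and 59.4 CPM in batch 2 to 117 and 93.2 CPM in batch 1 and 129, 89.97, 118 and 99.2 CPM in batch 2 (log2 fold change 0.93 ± 0.16). Others that rose included Nsdhl, Cyp51, Msmo1, Fdps, Mvk, Stard4, Sqle, Hsd17b7, Dhcr7, Hmgcs1 and Insig1, by 0.33 to 0.93. Ebp, a sterol isomerase of the same pathway on the X chromosome, fell, with a log2 fold change of -0.52 ± 0.09. It stood at 35.7 and 34.7 CPM in batch 1 and 37.9 and 39.1 CPM in batch 2 without dox and at 26.7 and 22.1 CPM in batch 1 and 29.4, 26.7, 25.9 and 24.4 CPM in batch 2 with dox.

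Summed over the list, cholesterol synthesis took 3544 to 3755 CPM in the 4 libraries without dox and 4352 to 5725 CPM in the 6 with dox, so the groups did not overlap. The highest was dox library 1 of batch 2. The count of rises was 8 in batch 2 alone, and 9 without the first batch 1 library without dox. Of the related fatty acid list, 8 of 28 rose (28.6%) and 7 fell (25.0%), against 15.4% and 14.6% over all genes. The desaturase genes Fads3 and Fads1 rose by 1.37 ± 0.18 and 0.93 ± 0.17. Cpt1a, which brings fatty acids into mitochondria for oxidation, fell from 10.8 and 17.4 CPM in batch 1 and 34.3 and 33.3 CPM in batch 2 to 1.96 and 1.78 CPM in batch 1 and 1.91, 9.87, 7.38 and 6.86 CPM in batch 2 (log2 fold change -2.44 ± 0.36). Elovl7, a fatty acid elongase, fell by 1.62 ± 0.17. The rises in this list numbered 5 without dox libraries 1 and 2 of batch 2 and 2 in batch 1 alone.

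Glycolysis breaks glucose down to pyruvate and lactate, and stem cells are known to rely on it. Of 24 tested members 8 fell (33.3%), 2 rose (8.33%) and 14 were not called, against 14.6% lower and 15.4% higher over all genes. The median was -0.233. Summed over the list, the level without dox was 10040 and 11740 CPM in batch 1 and 15140 and 13980 CPM in batch 2. With dox it was 7294 and 9143 CPM in batch 1 and 14340, 10320, 9860 and 10230 CPM in batch 2. Dox library 1 of batch 2 thus lay between the 2 controls of its batch. Slc2a1, the main glucose transporter, fell from 448 and 587 CPM in batch 1 and 499.9 and 429 CPM in batch 2 to 119 and 179 CPM in batch 1 and 210.2, 221, 167 and 167 CPM in batch 2 (log2 fold change -1.46 ± 0.18, adjusted p = 9.59e-06). Pdk1, a kinase that holds pyruvate back from mitochondria, fell from 116 and 93.4 CPM in batch 1 and 289 and 249 CPM in batch 2 to 58.1 and 48.8 CPM in batch 1 and 67.1, 44.4, 69.96 and 58.6 CPM in batch 2 (log2 fold change -1.66 ± 0.21). The other falls were in Slc2a3, Ldhb, Hk2, Ldha, Slc16a3 and Eno1, by 0.28 to 1.39. Hk1 rose by 0.66 ± 0.20 and Pfkfb4 by 0.503 ± 0.17, and the batch 2 groups of both overlapped. The Hk1 call was lost without the second dox library or the first library without dox of batch 1 (adjusted p = 0.0773 and 0.0865). The Pfkfb4 call was lost without the second batch 2 library without dox (adjusted p = 0.125), without any one of the 4 batch 1 libraries (0.0533 to 0.0868) and with no low-count filter (0.113). Of the oxidative phosphorylation list 24 of 27 members were not called, with 7.41% higher and 3.7% lower. Ndufa1 and Ndufa4 rose by 0.301 ± 0.09 and 0.205 ± 0.07 and Cox7a1 fell by 1.20. No rise in that list was called when only the 10 libraries were fitted, or without the second dox library or the first library without dox of batch 1, and Ndufa4 lost its call when any one of 6 libraries was left out (adjusted p = 0.0592 to 0.148).

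**Figure D3:**
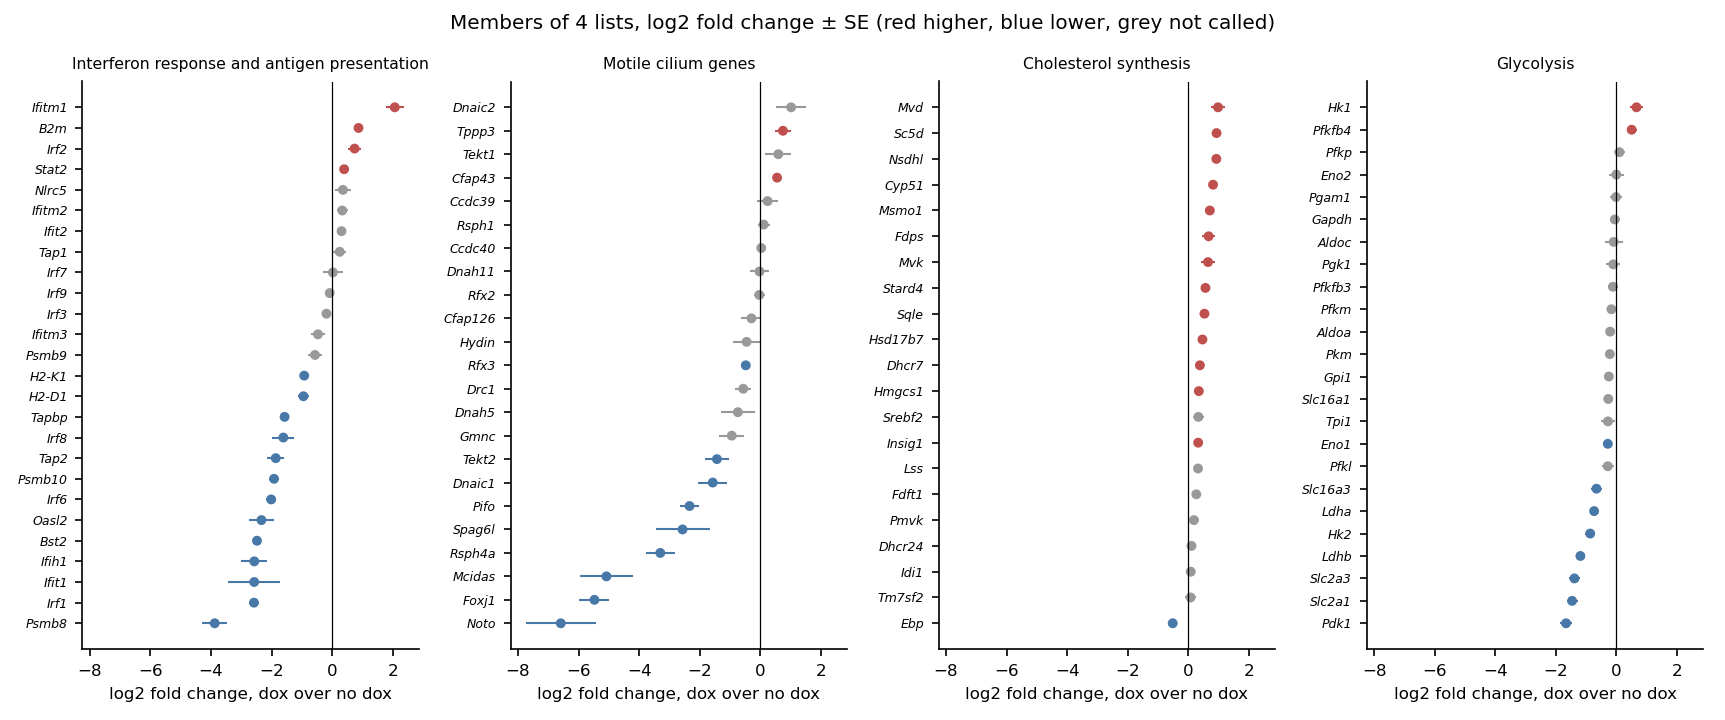
Log2 fold change with dox, with its SE, of tested members of the interferon, motile cilium, cholesterol and glycolysis lists on a common axis. Red points were called higher, blue lower and grey not called: the cholesterol points lie between -0.52 and 0.98, while the interferon points run from -3.88 to 2.07.

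Serine, glycine and one-carbon metabolism had 9 falls (36.0%) and 2 rises (8.0%) among 25 tested members, against 14.6% and 15.4% over all genes. The enzymes that turn homocysteine into cysteine led the falls. Cbs went from 23.4 and 25.4 CPM in batch 1 and 24.00 and 26.7 CPM in batch 2 to 2.86 and 2.596 CPM in batch 1 and 2.201, 6.23, 3.69 and 4.86 CPM in batch 2 (log2 fold change -2.799 ± 0.20, adjusted p = 2.99e-08). Cth, the next enzyme, went from 41.6 and 37.6 CPM in batch 1 and 37.7 and 38.2 CPM in batch 2 to 11.6 and 9.41 CPM in batch 1 and 10.3, 14.7, 14.1 and 12.5 CPM in batch 2 (log2 fold change -1.702 ± 0.11). The glycine and threonine enzymes Gldc, Tdh and Gcat fell too, and so did Gnmt, Shmt1, Mthfd1 and Ahcy. Mthfd2l and Aldh1l2 rose by 0.65 and 1.04. The genes of serine synthesis, Phgdh, Psat1 and Psph, were not called.

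Among 29 tested genes of nucleotide synthesis and salvage, 8 fell (27.6%) and 2 rose (6.9%), against 14.6% and 15.4% over all genes. Among the rises was Hprt, the X-linked purine salvage enzyme (gene at chrX:52988137-53021659). It stood at 2.73 and 3.27 CPM in batch 1 and 3.69 and 3.76 CPM in batch 2 without dox. With dox it stood at 14.7 and 11.9 CPM in batch 1 and 15.5, 18.3, 27.1 and 24.1 CPM in batch 2, a log2 fold change of 2.397 ± 0.22 (adjusted p = 3.28e-07), 2.16 in batch 1 and 2.53 in batch 2. All 6 dox libraries lay above all 4 controls. Hprt was at 14.7 and 13.8 CPM after 12 h of dox, against 2.56 and 3.78 CPM without. In stem cells held in 2i, a medium of kinase inhibitors, it was at 32.9 and 63.7 CPM with dox and 11.1 and 8.58 CPM without. It was at 0.633 to 1.421 CPM in all 6 sorted libraries of day 4. The Hprt locus is a common docking site for dox-driven transgenes in mouse stem cells. The labels do not give the site used here, and its part in the rise was not tested.

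Dctd was the other rise, by 0.56 ± 0.07. Nt5e, the surface enzyme CD73 that makes adenosine, fell from 20.1 and 22.8 CPM in batch 1 and 21.5 and 26.8 CPM in batch 2 to 4.15 and 3.08 CPM in batch 1 and 4.84, 4.29, 2.23 and 2.23 CPM in batch 2 (log2 fold change -2.699 ± 0.25), and Cda, cytidine deaminase, fell by 2.32 ± 0.31. Gart, Ppat, Adsl, Uprt, Samhd1 and Tk1 fell by 0.37 to 0.69. Of 22 amino acid transporters 7 fell (31.8%) and 5 rose (22.7%), against 14.6% and 15.4% over all genes. Slc7a3, a carrier of arginine and lysine, fell from 157 and 121 CPM in batch 1 and 261 and 224 CPM in batch 2 to 14.5 and 10.1 CPM in batch 1 and 13.1, 35.4, 35.6 and 32.7 CPM in batch 2 (log2 fold change -3.14 ± 0.26). Slc38a5, a glutamine carrier, rose by 2.43 ± 0.40, with dox values of 25.1 and 20.1 CPM in batch 1 and 44.3, 6.71, 17.4 and 16.5 CPM in batch 2. Slc38a3 fell by 1.66 ± 0.17, and Slc6a9, a glycine carrier, rose by 0.79 ± 0.19. Its groups overlapped in batch 2, and 30.2% of its exon bases overlap another gene.

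Ligands and receptors of several signalling pathways changed. In the Hedgehog list 7 of 16 tested members rose (43.8%) and 3 fell (18.8%), against 15.4% and 14.6% over all genes. Scube1, a secreted protein whose family helps release Hedgehog ligand, went from 1.04 and 1.25 CPM in batch 1 and 0.346 and 0.439 CPM in batch 2 to 17.7 and 20.4 CPM in batch 1 and 15.99, 14.1, 11.1 and 18.3 CPM in batch 2 (log2 fold change 4.58 ± 0.29, adjusted p = 8.22e-09). The co-receptor gene Gas1 rose by 1.603 ± 0.32 while the co-receptor gene Cdon fell by 0.85 ± 0.11, and Boc, a relative of Cdon, rose by 1.39. The pathway's antagonist Hhip rose by 3.07 from 0.545 to 4.42 CPM on average. Scube3 fell by 0.81. Ptch1 and Gli1, whose levels are known readouts of Hedgehog activity, had log2 fold changes of -0.05 and 0.28 and were not called, and the ligand genes Shh and Dhh were too low to test.

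In planar cell polarity, the system that aligns cells within a sheet, 4 of 23 members rose (17.4%) and 7 fell (30.4%). Over all genes 15.4% were higher and 14.6% lower. Wnt5a, a ligand of this system, stood at 28.6 and 23.1 CPM in batch 1 and 1.67 and 1.505 CPM in batch 2 without dox and at 205 and 266 CPM in batch 1 and 193, 151, 200.1 and 206 CPM in batch 2 with dox (log2 fold change 4.61 ± 0.56, adjusted p = 6.47e-06). The protocadherin gene Dchs1 rose by 2.03 ± 0.27, and Fzd7 and Dact1 by 0.95 and 0.93. Fzd6, a receptor of the system, fell from 40.7 and 35.5 CPM in batch 1 and 30.8 and 31.98 CPM in batch 2 to 9.896 and 7.63 CPM in batch 1 and 4.25, 4.61, 4.59 and 4.29 CPM in batch 2 (log2 fold change -2.497 ± 0.13). Wnt11, another ligand, fell by 2.07 ± 0.34. Celsr1, Celsr2, Vangl1, Dvl1 and Prickle2 fell by 0.37 to 1.81, while Vangl2, Celsr3, Ptk7, Ror1 and Ror2 were not called.

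TGF-beta genes had 10 rises (52.6%) and 3 falls (15.8%) among 19 tested members, against 15.4% and 14.6% over all genes. Their median was 0.433. The ligand gene Tgfb2 went from 6.02 and 4.04 CPM in batch 1 and 1.44 and 0.941 CPM in batch 2 to 14.7 and 10.5 CPM in batch 1 and 4.25, 5.58, 5.29 and 3.89 CPM in batch 2 (log2 fold change 1.66 ± 0.23). Its receptor gene Tgfbr2 rose by 1.23 ± 0.22, and Smad3, which carries the signal to the nucleus, rose by 1.06. The co-receptor gene Tgfbr3 fell from 51.9 and 63.4 CPM in batch 1 and 67.2 and 86.8 CPM in batch 2 to 16.2 and 15.6 CPM in batch 1 and 12.03, 18.1, 13.8 and 10.98 CPM in batch 2 (log2 fold change -2.19 ± 0.26, adjusted p = 5.69e-06), and the inhibitor Smad7 fell by 0.97 ± 0.22. The other 7 rises were of 0.35 to 0.53. The list had 6 rises without the second batch 2 library without dox and 2 in batch 1 alone.

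Receptors and enzymes of signalling by the lipids lysophosphatidic acid and sphingosine 1-phosphate formed a further list. Of its 19 tested members 11 were higher (57.9%) and 2 lower (10.5%), against 15.4% and 14.6% over all genes. Lpar1 went from 23.9 and 24.2 CPM in batch 1 and 15.1 and 17.6 CPM in batch 2 to 47.8 and 40.3 CPM in batch 1 and 39.8, 39.7, 39.7 and 44.7 CPM in batch 2 (log2 fold change 1.16 ± 0.12, adjusted p = 8.86e-07), and Lpar3 rose by 2.797 ± 0.36. Lpar4 fell from 87.96 and 59.7 CPM in batch 1 and 71.2 and 73.9 CPM in batch 2 to 30.6 and 18.01 CPM in batch 1 and 12.3, 14.1, 21.5 and 18.5 CPM in batch 2 (log2 fold change -1.87 ± 0.22) and Lpar2 fell by 0.65 ± 0.15. The sphingosine receptor genes S1pr1, S1pr2 and S1pr3 and the kinase gene Sphk1 rose, and among these S1pr2 alone was above 5 CPM. The lipid phosphatase genes Plpp1 and Plpp3 rose by 0.74 and 1.08.

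Cyclic nucleotide genes had the highest median of all lists, at 0.445, close to the 0.443 of cholesterol synthesis. Of 27 tested members 13 rose (48.1%) and 5 fell (18.5%), against 15.4% and 14.6% over all genes. Adcy5, an adenylyl cyclase that makes cyclic AMP, went from 3.09 and 2.85 CPM in batch 1 and 2.31 and 1.25 CPM in batch 2 to 11.8 and 14.8 CPM in batch 1 and 14.6, 13.7, 12.1 and 11.4 CPM in batch 2 (log2 fold change 2.52 ± 0.23, adjusted p = 3.18e-07). The cyclase genes Adcy1, Adcy3, Adcy4, Adcy6 and Adcy8 rose as well, by 0.45 to 2.48. Pde8b, a phosphodiesterase that breaks cyclic AMP down, rose by 2.71 ± 0.22. Pde4b fell by 1.56 ± 0.15 and Pde9a, which degrades cyclic GMP, by 1.78 ± 0.30. Pde3a and Pde4d fell too.

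Hippo pathway members were split, 5 of 22 higher (22.7%) and 6 lower (27.3%), against 15.4% and 14.6% over all genes. Tead1, the DNA-binding partner of YAP, went from 120.3 and 118 CPM in batch 1 and 109.8 and 96.5 CPM in batch 2 to 228 and 277 CPM in batch 1 and 251, 244, 289 and 274 CPM in batch 2 (log2 fold change 1.26 ± 0.12), and the YAP-binding gene Amotl1 rose by 1.61 ± 0.17. The YAP target Ccn1 fell from 62.5 and 46.9 CPM in batch 1 and 50.1 and 58.00 CPM in batch 2 to 27.9 and 20.6 CPM in batch 1 and 12.8, 23.7, 18.4 and 20.5 CPM in batch 2 (log2 fold change -1.33 ± 0.20). Its relative Ccn2 stood at 20.1 and 20.5 CPM in batch 1 and 24.8 and 25.5 CPM in batch 2 without dox and at 25.02 and 20.6 CPM in batch 1 and 4.77, 8.33, 5.64 and 4.52 CPM in batch 2 with dox. In batch 1 both dox libraries lay just above the controls, and in batch 2 all 4 lay far below them. Its log2 fold change over both batches was -1.14 ± 0.32, with 0.17 in batch 1 and -2.09 in batch 2, and 23.2% of its exon bases overlap another gene. The call was lost without either batch 2 library without dox (adjusted p = 0.0539 and 0.0557). Ankrd1, a further target, rose from 0.708 to 1.85 CPM on average, and Yap1 was not called.

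Genes of the matrix and cell surface changed in both directions within each list. Of 31 proteoglycan and heparan sulfate genes 12 rose (38.7%) and 3 fell (9.68%), against 15.4% and 14.6% over all genes. Vcan, the large hyaluronan-binding proteoglycan of the embryonic heart, went from 132 and 61.2 CPM in batch 1 and 65.95 and 41.5 CPM in batch 2 to 499.7 and 320.4 CPM in batch 1 and 336, 618, 615 and 481 CPM in batch 2 (log2 fold change 2.75 ± 0.34, adjusted p = 7.17e-06). Hs3st3b1, a heparan sulfate sulfotransferase, stood at 31.98 and 25.4 CPM in batch 1 and 0.635 and 0.878 CPM in batch 2 without dox and at 41.8 and 37.4 CPM in batch 1 and 40.5, 29.3, 39.8 and 33.3 CPM in batch 2 with dox. Its log2 fold change was 2.46 ± 0.70, with 0.46 in batch 1 and 5.58 in batch 2, and the call was lost without either batch 2 library without dox (adjusted p = 0.0664 and 0.0773). Has3, a hyaluronan synthase, fell by 0.76 ± 0.26 and Ext1, which builds heparan sulfate chains, by 0.66 ± 0.11, while Has2 rose by 1.04. The Has3 call was lost when any one of 4 batch 2 libraries was left out, with adjusted p of 0.0549 to 0.127. The list had 5 falls without dox library 2 of batch 2.

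Among 27 matrix proteases and inhibitors 9 rose (33.3%) and 5 fell (18.5%), against 15.4% and 14.6% over all genes. Adamts9, a secreted protease that cuts Vcan protein among others, fell from 477 and 527 CPM in batch 1 and 326 and 349.9 CPM in batch 2 to 25.5 and 23.5 CPM in batch 1 and 21.2, 46.9, 34.3 and 29.7 CPM in batch 2 (log2 fold change -3.701 ± 0.24, adjusted p = 8.32e-09). Adamts15, of the same group, fell by 1.79 ± 0.16. Mmp2, a gelatinase, rose from 25.5 and 27.4 CPM in batch 1 and 41.02 and 38.2 CPM in batch 2 to 76.5 and 81.3 CPM in batch 1 and 101, 146, 135 and 121 CPM in batch 2 (log2 fold change 1.66 ± 0.15), with its membrane-bound activator Mmp14 and its inhibitor Timp2 also higher, by 0.77 and 0.94. Adamts2, which trims procollagen, rose by 2.005 ± 0.23.

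Integrins are paired receptor chains that hold cells to the matrix. Itga4, the fibronectin and VCAM1 receptor chain, rose from 1.43 and 1.07 CPM in batch 1 and 2.08 and 1.88 CPM in batch 2 to 12.1 and 9.98 CPM in batch 1 and 8.51, 8.74, 9.54 and 7.04 CPM in batch 2 (log2 fold change 2.56 ± 0.22). Itga1, Itga9, Itga10 and Itgav rose by 0.66 to 1.47. The laminin receptor chains Itga3, Itga6 and Itgb4 fell by 2.43, 0.89 and 1.02, and Itgb8 by 2.47 ± 0.23. Thus 5 of 17 members rose (29.4%) and 4 fell (23.5%), against 15.4% and 14.6% over all genes. Itga3 stood at 35.5 and 41.6 CPM in batch 1 and 59.8 and 52.7 CPM in batch 2 without dox and 7.93 and 6.82 CPM in batch 1 and 4.401, 17.9, 7.59 and 9.95 CPM in batch 2 with dox. Itgb1, the shared partner of most of these chains, was not called.

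Of 24 enzymes that build surface glycans 9 rose (37.5%) and 4 fell (16.7%), against 15.4% and 14.6% over all genes. St8sia1, which makes the ganglioside GD3, went from 0.387 and 0.178 CPM in batch 1 and 1.67 and 0.627 CPM in batch 2 to 8.93 and 10.4 CPM in batch 1 and 22.5, 19.2, 29.9 and 16.2 CPM in batch 2 (log2 fold change 4.52 ± 0.32, adjusted p = 2.15e-08). Fut4, a fucosyltransferase, rose by 2.19 ± 0.16, while Fut9, which makes the SSEA-1 epitope of stem cells, fell by 1.52. Galnt3, which starts O-linked chains, fell from 22.1 and 18.7 CPM in batch 1 and 27.9 and 28.5 CPM in batch 2 to 4.04 and 2.35 CPM in batch 1 and 1.100, 4.37, 2.79 and 2.46 CPM in batch 2 (log2 fold change -3.05 ± 0.25), and B3gnt7 fell by 1.55 ± 0.23. For St8sia1, Fut4, Galnt3 and B3gnt7 the dox and no-dox libraries did not overlap within either batch.

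Of 25 actin and myosin genes 8 rose and 2 fell. Fhod3, a formin of cardiac sarcomeres, rose by 2.62 ± 0.26 to 38.7 and 49.5 CPM in batch 1 and 47.1, 23.1, 26.1 and 22.6 CPM in batch 2, and Fhl1 by 1.897 ± 0.12. The abundant Actn4 and Myh9 fell by 0.47 ± 0.10 and 0.41 ± 0.10. Of 16 annexins and S100 genes 6 rose (37.5%) and 3 fell (18.8%). Anxa5, the phosphatidylserine-binding annexin, rose by 1.76 ± 0.16 and Anxa11 by 1.54 ± 0.19, while Anxa7 and Anxa4 fell by 0.56 and 0.35. Falls numbered 1 without the second batch 1 library without dox, where the Anxa4 call was lost (adjusted p = 0.0516).

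Of 23 potassium channel genes 8 rose (34.8%) and 5 fell (21.7%), against 15.4% and 14.6% over all genes. Kcnh1, a voltage-gated channel, went from 0.532 and 0.357 CPM in batch 1 and 0.115 and 0.188 CPM in batch 2 to 14.6 and 23.3 CPM in batch 1 and 32.4, 8.74, 10.4 and 10.3 CPM in batch 2 (log2 fold change 5.72 ± 0.54, adjusted p = 4.34e-07). Kcnn3, a calcium-activated channel, rose by 5.65 ± 0.43. Kcnj3, a G-protein-gated channel of atrial and nerve cells, fell from 73.9 and 54.4 CPM in batch 1 and 24.6 and 18.9 CPM in batch 2 to 7.53 and 4.79 CPM in batch 1 and 1.91, 3.96, 3.41 and 2.52 CPM in batch 2 (log2 fold change -3.06 ± 0.29). Overlap with another gene took 31.1% of the exon bases of Kcnj3. Without the first batch 1 or the first batch 2 library without dox the rises numbered 5, and without the latter the falls numbered 3. The gap junction list holds connexin and pannexin genes, and of 12 tested 1 rose (8.33%), the pannexin gene Panx1 by 0.52 ± 0.15. A further 3 fell (25.0%), among them Gjd2 and Panx2, all under 5 CPM on average. Over all genes 15.4% were higher and 14.6% lower. The rises numbered 2 without the first batch 1 dox library. The Panx1 call was lost without either batch 2 library without dox (adjusted p = 0.0772 and 0.0698). Gja1, the main connexin of heart and stem cells, was not called.

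Regulators of splicing and mRNA binding had 12 falls (36.4%) and 8 rises (24.2%) among 33 members, against 14.6% and 15.4% over all genes. Esrp1, which sets epithelial splice forms, fell from 165 and 155 CPM in batch 1 and 175 and 178 CPM in batch 2 to 12.6 and 15.1 CPM in batch 1 and 9.096, 46.6, 37.9 and 38.7 CPM in batch 2 (log2 fold change -2.79 ± 0.32, adjusted p = 4.21e-06). Rbm47, another regulator found in epithelia, fell from 43.2 and 56.5 CPM in batch 1 and 64.8 and 65.8 CPM in batch 2 to 7.03 and 6.41 CPM in batch 1 and 3.37, 8.17, 6.68 and 6.06 CPM in batch 2 (log2 fold change -3.17 ± 0.21). Rbm24 and Rbm20, splicing factors of heart muscle, rose by 1.94 ± 0.43 and 0.96 ± 0.13. Rbm20 stood at 8.97 and 6.07 CPM in batch 1 and 5.94 and 5.204 CPM in batch 2 without dox and 13.9 and 13.1 CPM in batch 1 and 12.1, 11.9, 11.6 and 10.98 CPM in batch 2 with dox. Lin28a and Lin28b, which block let-7 microRNA maturation, fell by 0.85 and 0.48.

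Histone deacetylases and demethylases were mostly not called, 20 of 27, with 7.41% higher and 18.5% lower, against 15.4% and 14.6% over all genes. Kdm4c, a histone H3 lysine demethylase, fell from 66.4 and 51.6 CPM in batch 1 and 118 and 105 CPM in batch 2 to 41.8 and 25.9 CPM in batch 1 and 26.99, 39.00, 38.98 and 31.5 CPM in batch 2 (log2 fold change -1.31 ± 0.19). Hdac6, a deacetylase of tubulin, fell by 0.76 ± 0.08 with Hdac4, Kdm6a and Hdac1. Hdac7 rose by 1.17 ± 0.26 and Hdac10 by 0.46 ± 0.12.

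Among 25 ribosome biogenesis and Myc family genes 8 fell and Mxd4, a Myc antagonist, rose by 1.418 ± 0.21. Mycl, a Myc relative, fell from 119.6 and 131 CPM in batch 1 and 139.6 and 142 CPM in batch 2 to 35.8 and 37.3 CPM in batch 1 and 37.3, 52.02, 36.9 and 40.04 CPM in batch 2 (log2 fold change -1.75 ± 0.10, adjusted p = 3.15e-09), and Mxi1 fell by 0.53 ± 0.13. Myc and Mycn were not called, and the list had 2 rises without the first batch 1 library without dox. Among 21 p53 targets and Cdk inhibitors 7 rose (33.3%) and 2 fell (9.52%), against 15.4% and 14.6% over all genes. Cdkn1c, the imprinted inhibitor p57, stood at 29.4 and 27.4 CPM in batch 1 and 3.63 and 2.07 CPM in batch 2 without dox and 200.2 and 161 CPM in batch 1 and 3.59, 35.4, 23.4 and 15.6 CPM in batch 2 with dox (log2 fold change 2.600 ± 0.50), so dox library 1 of batch 2 was level with its controls while the other dox libraries were above theirs. Overlap with another gene took 30.6% of its exon bases. Eda2r rose by 0.87 ± 0.22, Trp73 fell by 2.75 ± 0.41, and Cdkn1a fell by 0.67 ± 0.22. The Cdkn1a call was lost when any one of 4 libraries was left out (adjusted p = 0.0515 to 0.0635), and the list had 4 falls without dox library 2 of batch 2.

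Of 25 antioxidant and metallothionein genes 8 fell and 6 rose. Gpx3, Gpx7 and Gpx8, glutathione peroxidase genes, rose by 1.26, 1.01 and 1.07, while Mgst1, a microsomal glutathione transferase, fell from 8.87 and 9.04 CPM in batch 1 and 9.12 and 6.52 CPM in batch 2 to 1.38 and 1.05 CPM in batch 1 and 1.39, 1.86, 1.601 and 1.31 CPM in batch 2 (log2 fold change -2.53 ± 0.24). Mt2 fell by 1.13 ± 0.40, but 73.5% of its exon bases overlap another gene and the call was lost when any one of 8 libraries was left out. The falls in this list numbered 5 when any one of 4 libraries was left out, the second batch 1 or either batch 2 library without dox, or dox library 4 of batch 2. Of 16 Bcl2 family genes 2 rose (12.5%), Bmf by 1.02 ± 0.19 and Bcl2l1 by 0.53 ± 0.10. Bid, Bik and Hrk fell (18.8%), and over all genes 15.4% were higher and 14.6% lower. Of 21 unfolded protein response genes 16 were not called, with 9.52% higher and 14.3% lower. Herpud1 and Asns rose by 0.99 ± 0.14 and 0.72 ± 0.10, and Trib3, Ern1 and Creld2 fell by 1.24, 0.46 and 0.31. The Ern1 call was lost when any one of 7 libraries was left out (adjusted p = 0.0545 to 0.11), and the falls numbered 1 without any one of 4 of them. Of 27 lysosome and autophagy genes 21 were not called, with 7.41% higher and 14.8% lower. Tfe3, a transcription factor of lysosome genes, fell from 95.5 and 115 CPM in batch 1 and 161 and 148 CPM in batch 2 to 48.1 and 60.1 CPM in batch 1 and 59.05, 82.6, 65.2 and 68.4 CPM in batch 2 (log2 fold change -1.05 ± 0.12), Neu1 fell by 0.55 ± 0.16, and Npc2 rose by 0.497 ± 0.10. The Neu1 call was lost without the first batch 2 library without dox (adjusted p = 0.0509). Lamp2, the other rise, lost its call when any one of 8 libraries was left out, and its batch 2 groups overlapped.

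The effect of dox was then compared between batches by the difference of the 2 within-batch effects, which was called for 117 of 18592 genes (0.629%), 103 of them higher in batch 2 (0.554%) and 14 lower (0.0753%). Of 148 named genes 3 had a called difference. On simulated counts this test recovered 25 of 100 genes with a 2-fold difference and 73 of 100 with a 4-fold difference. Genes not called can therefore still differ between batches. Hs3st3b1 had a difference of 5.12 (batch 2 minus batch 1, log2, adjusted p = 9.25e-07), Wnt5a one of 3.70 (adjusted p = 0.000757) and Ccn2 one of -2.26 (adjusted p = 0.00888). The levels of Hs3st3b1 and Wnt5a with dox were alike in both batches, and those without dox were higher in batch 1, as was Mesp1. The difference for Mesp1 was 4.99 and was not called (adjusted p = 0.12). Ccn2 was the only named gene with effects of opposite sign. The count of genes with a called difference was between 22 and 63 when any one library of batch 1 or any one batch 2 library without dox was left out, and was 237 without dox library 1 of batch 2.

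**Figure D4:**
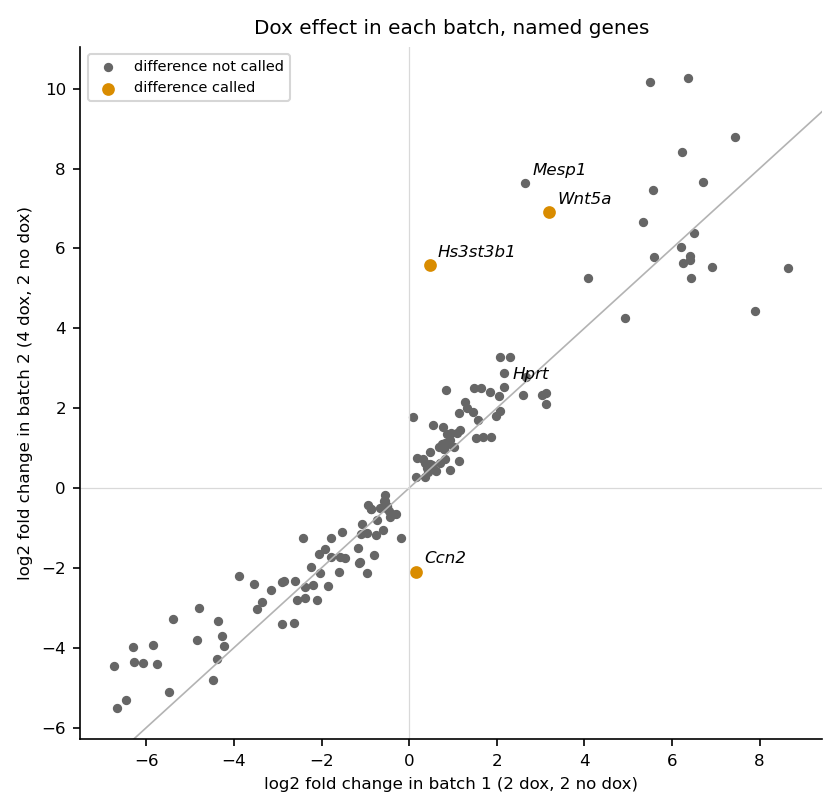
Log2 fold change with dox in batch 1 (horizontal) and batch 2 (vertical) for 148 named genes, with the line of equality. The 3 genes whose difference between batches was called are in orange: Wnt5a and Hs3st3b1 lie above the line and Ccn2 below it with a sign change.

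The same genes were read in the sorted cells of day 4, where 4318 of 16868 genes (25.6%) were called between double positive and double negative cells, 1587 higher (9.41%) and 2731 lower (16.2%). With the replicate number as a block the calls numbered 7254, of which 3316 were higher. Those higher numbered 879, 927 and 1006 when the fifth or the third double negative or the third double positive library was left out. Of the genes lower with dox and tested in both comparisons, 1292 were lower in double positive cells, 53.9% of the former and 49.3% of the latter. Of those higher with dox, 724 were higher in double positive cells, 28.9% of the former and 46.4% of the latter. The opposite pairings held 207 genes higher with dox and lower in double positive cells, and 51 the other way. With the block these were 368 and 176 genes, beside 1537 lower in both and 1006 higher in both.

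Among 72 named genes that fell with dox, 54 were lower in double positive cells, 17 were not called and 1, Smad7, was higher, by 1.35 ± 0.21 (log2, adjusted p = 0.00337). Among 75 that rose besides Mesp1, 25 were higher in double positive cells, 6 were lower, 37 were not called and 7 were not tested there. The 6 were Kcnh1, Kcnn3, Lpar1, Lpar3, Slc38a5 and Bcl2l1, with differences such as -2.15 ± 0.24 for Lpar1 and -1.48 ± 0.33 for Kcnh1. With the replicate number as a block, 13 of the 75 were lower and 31 higher in double positive cells, and 62 of the 72 that fell were lower. The 7 risen genes called lower with the block alone were Sparcl1, Rasgrf1, Fhl1, Tgfbr2, Hk1, Bmf and Mxd4. Of the 15 largest falls 13 were lower in double positive cells, with a difference of -5.01 ± 0.62 for Igfbp3, and 2 were not called. Of the 15 largest rises Snap91 and Mdga1 were higher, by 1.83 ± 0.30 and 1.63 ± 0.24. Without the block 6 others were not called, among them Sparcl1 and Rasgrf1, and 7 were too low to test. With the block 2 of the 15 were lower and 4 not called. Of the cilium list 19 members were lower in double positive cells, 3 not called and none higher. Of the cholesterol list 5 were higher, 1 lower and 17 not called, against 8 higher and 3 lower with the block.

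**Figure D5:**
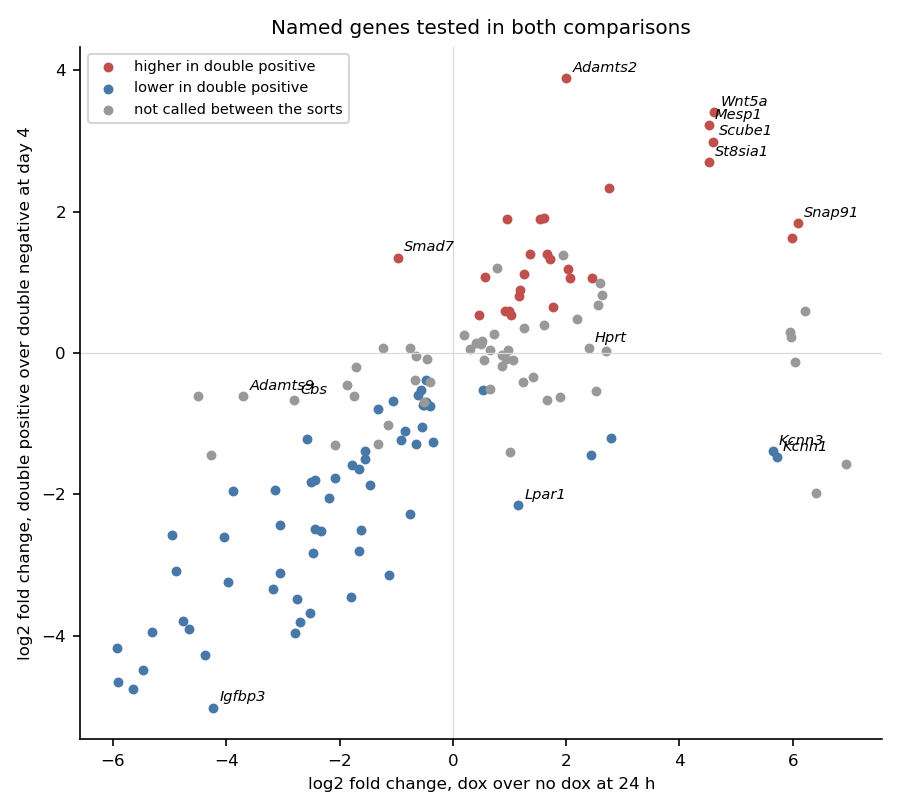
Log2 fold change with dox at 24 h (horizontal) and between double positive and double negative cells at day 4 (vertical) for 141 named genes tested in both. Points are coloured by their call between the sorts in the fit without the replicate block. Genes that fell with dox lie mostly in the lower left, while those with the largest rises spread around 0 on the vertical axis.

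Markers of cells that a culture could also hold were summed in each library. Fibroblast markers took 19.75 to 29.48 CPM without dox and 67.29 to 98.66 CPM with dox, of which Thy1 was the most abundant. Of the 6 tested 3 rose (Thy1, Col1a2 and Col3a1) and 2 fell (Dcn and Mfap5), and 5 of the 10 were below 1 CPM in every library. Neural crest and glia markers took 117.1 to 134.1 CPM without dox and 38.94 to 64.46 CPM with dox, and Erbb3 led with 69.4 against 6.39 CPM on average. Of the 6 tested 2 fell (Erbb3 and Foxd3) and 2 rose (Ngfr and Ets1). Macrophage and leukocyte markers took 6.924 to 21.29 CPM without dox and 4.181 to 16.15 CPM with dox, 1 of the 5 tested fell (Cd68) and none rose, 5 of the 8 were below 1 CPM in every library, and 1 had no count. The part of such cells in the changes of the surface, matrix and interferon genes was not tested.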

How the data were processed

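RNA was sequenced from 36 samples, of which the 18 libraries of batches 1 and 2 (0 h, 12 h and 24 h) entered the main fit and the 10 at 24 h the contrast. The values are read counts per gene, deposited by the authors and not normalised. Per the submitters' processing notes, Trimmomatic, STAR, HTSeq and DESeq2 were used with the mm10 build, with versions not given in the sources used here. Whether counting used strand is likewise not given, so reads of overlapping or antisense genes cannot be told apart. Reads that HTSeq assigned to no gene, 8.58% to 13.3% of each library at 24 h, were left out.

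Gene symbols and positions came from GENCODE M21 (GRCm38), which matched 49412 of 49671 identifiers. Of 780 pathway list entries 779 matched. Lists, members and rules were chosen with earlier results of these data known. CPM is a gene's count scaled to the library's gene total. Counts were tested with edgeR 4.0.16 in R 4.3.3 (robust quasi-likelihood F test, 2-sided, TMM, filterByExpr, group and batch as terms, Benjamini-Hochberg adjustment over all genes, called below 0.05). Every adjusted p in the text comes from this tool unless DESeq2 is named. The difference between batches and the sorted cells were tested in the same way, the latter on 3 libraries against 3. The test was checked on simulated counts.

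The named genes were Mesp1, the 15 largest rises and 15 largest falls among called protein-coding genes outside the lineage and previously described genes, and up to 2 rises and 2 falls in each list. Each had to reach a mean of 5 CPM in the higher group. The first set also had to have counts in both batches and no overlap of dox and no-dox libraries within a batch, so their separation is part of the rule. A few genes and 1 list are not reported here. Other list members are named to complete a count or were chosen after their values were seen.

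One read was worth 0.02254 to 0.08113 CPM. Nothing in the labels says that replicates came from separate cultures, so p-values measure the spread between these samples, which may be technical. Same-numbered sorted libraries deviated together (r = 0.334, 0.512 and 0.433 across genes), so the numbers were taken to pair them. The sorted calls, SEs and adjusted p-values nonetheless come from the fit without this pairing, unless the block is named. Alternatives were DESeq2 1.42.0, RLE size factors, no low-count filter, the 10 libraries alone, each batch alone, no batch term, a replicate block, genes counted in both batches, and each library left out. Promoters were RefSeq sequences of GRCm38.p6.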

Additional observations from a re-analysis of the deposited data

Results flagged for a closer look

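Among the 4 dox libraries of batch 2, some values lay far from the other 3 by Dixon's test, which flags about 1 in 20 groups by chance. Library 1 was apart in Lrrtm3 at 20.2 CPM, Igsf21 at 33.4 CPM, Mdga1 at 160 CPM, Tmem252 at 11.4 CPM, Fhod3 at 47.1 CPM and Kcnh1 at 32.3 CPM. It was also apart in Adamts2 at 6.16 CPM, Has3 at 3.3 CPM, Slc7a3 at 13.1 CPM and Mxi1 at 30.2 CPM. Its summed level was apart for glycolysis at 14337 CPM, for serine, glycine and one-carbon metabolism at 2433 CPM and for lysosome and autophagy genes at 2683 CPM. Library 2 was apart in Ccno at 1.29 CPM, Igfbp3 at 9.63 CPM and the antioxidant sum at 3304 CPM. Library 4 was apart in Lpar1 at 44.7 CPM.

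A difference in the effect of dox between batches was called for 3 named genes (log2, batch 2 minus batch 1, edgeR's test of the difference). The difference was 5.12 for Hs3st3b1 (adjusted p = 9.25e-07), 3.70 for Wnt5a (adjusted p = 0.000757) and -2.26 for Ccn2 (adjusted p = 0.00888).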

How the results depend on the processing

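The count of genes called with dox was 6049 with DESeq2, 5552 with RLE size factors, 5857 with no low-count filter and 4880 with only the 10 libraries, against 5584. It ran from 4451 to 5731 with each library left out. Batch 1 alone gave 1827 genes higher, batch 2 alone gave 3118 genes (1623 higher and 1495 lower), and 1801 were lower with no batch term. With the replicate block 6205 genes were called, of which 5268 were among the 5584. Same-numbered 24 h libraries deviated together in batch 1 (r = 0.557, a single value, since each group has 2 libraries) and not in batch 2 (r = -0.0221 and -0.00257). The main fit therefore did not take the 24 h numbers to pair the samples. In batch 1 the number went with depth: the first libraries held 41373234 (no dox) and 44360795 (dox) gene counts, the second 16817403 and 12325443. Of the named genes Ccn2, Hs3st3b1 and Lamp2 were not called with the block (adjusted p = 0.0755, 0.0615 and 0.0649). For the named genes, 2804 of the recomputed values kept their direction and call, 154 kept only the direction, and 1 reversed: Ccn2 in batch 1 alone, at 0.160 (adjusted p = 0.423). The cause was not tested.

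The difference between batches was called for 514 genes with no low-count filter (428 higher and 86 lower), and 8 were lower with only the 10 libraries. With 1 library left out it ran from 22 to 237 genes (20 to 190 higher, 2 to 47 lower). Between the sorts, the replicate block gave 7254 genes, 3316 of them higher, and leaving out 1 library gave 879 to 1727 higher. Depth limits genes near 1 CPM, and the effect of dox without the transgene, the clone and the culture are confounded with the groups or not recorded.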

Other observations

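Stem cells kept in 2i medium for 24 h, with 2 libraries for each treatment, gave a further reading of several genes and were not tested. Mesp1 stood at 1.09 and 0.613 CPM without dox and 85.4 and 119 CPM with dox. Rftn2 was at 2.62 and 2.66 CPM without dox and 2.44 and 3.84 CPM with dox. Snap91 was at 14.6 and 13.1 CPM without dox and 18.6 and 18.3 CPM with dox. Wnt5a was at 0.291 and 0.511 CPM without dox and 0.624 and 1.02 CPM with dox. In differentiating cells of batch 1 at 12 h, Rftn2 was at 0.408 and 0.540 CPM without dox and 28.9 and 40.2 CPM with dox.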
